A study of Rattus norvegicus with 6 samples.

Results

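The genes described here encode the vacuolar H+-ATPase (V-ATPase) and the ion transporters that work beside it in granules, endosomes and lysosomes. They were chosen by name in the table of gene counts: every gene whose name starts with Atp6v or Atp6ap, together with Dmxl1, Dmxl2, Clcn3 to Clcn7, Slc30a8, Slc18a1, Slc18a2 and Slc17a9. The rule found 36 of the 32900 features of the table, of which 24 are V-ATPase subunit or accessory genes, 2 are assembly factors and 9 are transporters. The remaining gene, Atp6v1fnb, is named for its position next to Atp6v1f and is no subunit.

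Total RNA was sequenced from 6 clonal lines of INS-1(832/13)::mCherry, a glucose-responsive β-cell model from a rat insulinoma that also carries a human INS transgene and a mouse Ins2 C-peptide-mCherry transgene. All 6 lines grew untreated in 7.5 mM glucose, and all 6 lack the imprinted Prader-Willi syndrome (PWS) domain on the silent maternal allele. The 3 control lines (5-9, 2 and 16) keep the active paternal copy, and the 3 PWS lines (3, 19-1 and 19-4) have lost it too. Each line was one library. All other lines descend from line 5-9. Lines 2 and 16 were cloned after transfection with an EGFP control vector, and lines 3 and 19 after transfection with the vector for guides and Cas9 against the paternal copy, so this exposure cannot be told apart from the deletion. Line 3 has another proximal breakpoint, and line 19 was subcloned into 19-1 and 19-4. The PWS group therefore holds 2 edited clones, and p-values measure the spread between these cultures. The comparison asks whether transcripts of the acidification machinery differ when the paternal PWS genes are absent.

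With reads that fit several genes counted for each of them, the counts of a line summed to between 26016478 and 36084261. Without such reads they summed to between 17530149 and 23022637. Values are normalized counts, which are read counts divided by the size factor of the library. With no read seen, counting error alone still permits 3 reads, which equal 2.73 to 3.59 normalized counts depending on the line. Normalized counts are not divided by transcript length, so a higher count of one gene than of another does not mean more transcript. All 10 β-cell markers checked, among them Ins1, Pdx1 and Slc2a2, had reads in every line. Their summed level was 484508 to 561411 in control and 254024 to 456084 in PWS lines. Of 14 markers of other islet, exocrine, stromal and immune cells, Gcg and Cd68 reached a mean of 5, and 5 had no read. The summed α-cell markers, mostly the glucagon gene Gcg, ranged from 1.84 to 23.7 in control and from 17.9 to 110.0 in PWS lines, with line 19-4 the highest. Of the 2 δ-cell markers, Sst, the somatostatin gene, had no read in any line, so their sum was the level of Hhex alone. Hhex had at most 2.85 in control and at most 13.6 in PWS lines, with line 19-4 again the highest. The summed macrophage markers ranged from 29.4 to 34.9 in control and from 27.6 to 31.1 in PWS lines, and the fibroblast markers stayed at or under 2.85. The part of these shifts in the values below was not tested, and fewer cells of a type cannot be told apart from less RNA per cell.

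The V-ATPase is a rotary proton pump. Its peripheral V1 sector hydrolyses ATP in a head of alternating A and B subunits and turns a stalk, which drives protons through the ring of the membrane-bound V0 sector. In β-cells the pump acidifies insulin granules, where proinsulin is cleaved by convertases that need an acidic lumen, while chloride-proton exchangers of the CLC family and vesicular carriers for zinc, nucleotides and amines use or balance the proton gradient.

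No tested gene of the group passed the test between PWS and control lines after adjustment over all genes. Of the 31 whose mean reached 5 normalized counts, 0 had a limma adjusted p under 0.05 (0.257% of all 15579 tested genes passed), 0 passed in edgeR (0.205% of all genes) and 0 in DESeq2 (1.46% of all genes). Without adjustment, 2 of the 31 had a limma p-value under 0.05, Atp6v0b and Dmxl2, where 11.3% of all tested genes did (6% higher and 5.35% lower in PWS lines). In edgeR and in DESeq2 1 of the 31, Atp6v0b, had an unadjusted p-value under 0.05, against 11.4% and 10.4% of all genes. The ranges of the groups were separate in 4 of the 31, against 17.4% of all tested genes. PWS lines were the higher in 2 of these (Clcn6 and Dmxl2, against 8.43% of all genes) and the lower in 2 (Atp6v0b and Atp6v0d1, against 9.01%). With 1 line left out the number was 4 to 10, and it was 10 without control line 2 (28.3% of all genes separate) and 4 without line 19-4 (26.4%). Over the 6 settings the share of all genes was 25.4% to 30.6%. Leaving out 1 line moved the log2 fold change by over 1.5 times or changed its sign in 29 of the 31 genes (all but Atp6v0d1 and Clcn6), with a change of sign in 13. The log2 fold changes ran from -0.27 for Clcn4 to 0.38 for Atp6v1c2, both genes with few reads. The median log2 fold change was -0.053 over the 20 tested V-ATPase genes and -0.14 over the 8 tested transporters, beside -0.0028 over all tested genes. With 1 line left out these 2 medians ran from -0.065 to -0.012 and from -0.20 to -0.074.

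The counts were deep enough to bound most of these differences. For 20 of the 31 genes the 95% interval of the log2 fold change lay within 0.5 of 0, where 59.1% of all tested genes did. Of the 22 whose mean reached 500 normalized counts, 19 had such an interval, against 86.5% of all genes with that mean. The 3 of these 22 with a wider interval were Atp6v1g1, Atp6v1h and Clcn5. Of the 9 genes with a mean under 500, 1 had such an interval, so for the other 8 a difference larger than 0.5 could not be told from none at this depth and spread.

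**Figure D1:**
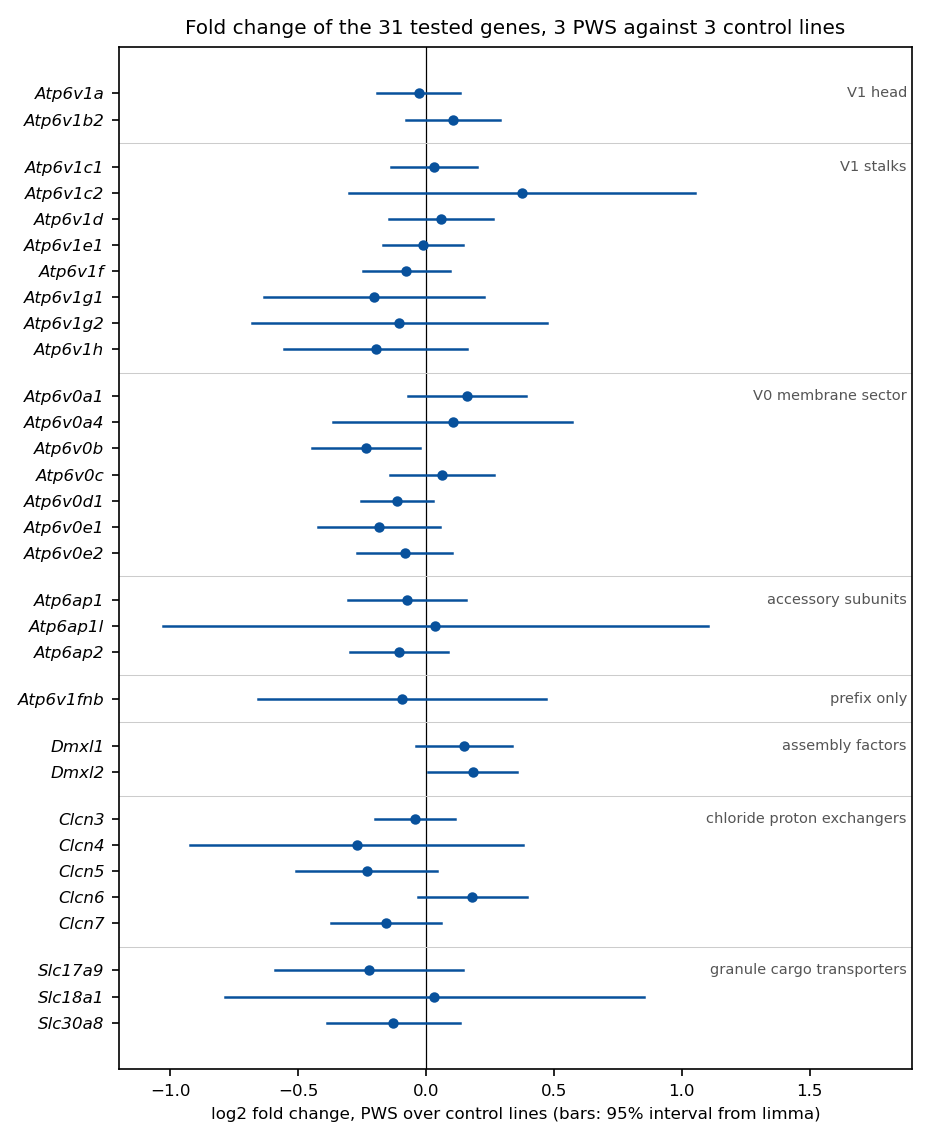
Log2 fold change of PWS over control lines (x axis) for the 31 tested genes (y axis), grouped by role, with points for limma estimates and bars for 95% intervals. The intervals cross 0 for all but Atp6v0b and Dmxl2, and they are widest for genes with few reads such as Atp6ap1l, Slc18a1 and Clcn4.

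In the V1 head, Atp6v1a, the gene of the catalytic A subunit, had normalized counts of 7541, 6829 and 6842 in control lines 5-9, 2 and 16 and 6553, 7108 and 7114 in PWS lines 3, 19-1 and 19-4. The groups overlapped, and line 3 was the lowest of the 6. The log2 fold change was -0.030 (standard error, SE, 0.07, 95% interval -0.19 to 0.13, limma adjusted p = 0.916). Reads that map to Atp6v1a alone made up 81.7% of its count, the lowest share of the tested genes described here, whereas over 90% were unique for the other 30. Atp6v1b2, which encodes the B subunit of most tissues, had 5287 to 6317 normalized counts in control lines and 6258 to 6418 in PWS lines, and its log2 fold change was 0.11 (SE 0.08), or 0.027 without control line 2, its lowest line. Its kidney counterpart Atp6v1b1 had 2 reads over the 6 libraries, 1 in control line 5-9 and 1 in PWS line 19-4.

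The V1 stalks hold the subunits C to H, which couple the head to the membrane. Atp6v1h, whose product regulates the docking of V1 on V0, had normalized counts of 5269, 7989 and 5092 in control lines 5-9, 2 and 16 and 5089, 5274 and 5300 in PWS lines 3, 19-1 and 19-4. Control line 2 stood alone, while the other 5 lines lay within 5089 to 5300. The log2 fold change of -0.20 (SE 0.16, limma adjusted p = 0.675) became 0.011 without line 2. Atp6v1g1, the widely used G subunit of the peripheral stalk, had the same form, with normalized counts of 1744, 2934 and 1711 in control lines 5-9, 2 and 16 and 1726, 1846 and 1800 in PWS lines 3, 19-1 and 19-4. Line 2 was again the high one, and the log2 fold change moved from -0.20 (SE 0.19, limma adjusted p = 0.727) to 0.051 without it.

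The other stalk genes with many reads varied little between groups. Atp6v1c1, the C subunit that leaves the complex when V1 and V0 come apart, had 3182 to 3603 normalized counts in control lines and 3413 to 3680 in PWS lines. Atp6v1d, the central rotor, had 824 to 930 and 856 to 998. For Atp6v1e1 the ranges were 3787 to 4247 and 3856 to 4088, and for Atp6v1f 1581 to 1788 and 1577 to 1687. The log2 fold changes of these 4 genes lay between -0.077 (Atp6v1f) and 0.058 (Atp6v1d), and their groups overlapped.

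The tissue-restricted stalk isoforms had few reads. Atp6v1c2, an isoform of lung and kidney, had normalized counts of 22.8, 27.5 and 20.5 in control lines 5-9, 2 and 16 and 28.6, 22.7 and 44.5 in PWS lines 3, 19-1 and 19-4. Line 19-4 set the mean of the PWS lines, and the log2 fold change of 0.38 (SE 0.30, limma adjusted p = 0.671) was 0.12 without it. Atp6v1g2, the neuronal G subunit, ranged from 38.9 to 54.2 in control and from 32.7 to 55.0 in PWS lines. Atp6v1e2, known from testis, had 1 to 5 reads in each line, and Atp6v1g3, a kidney isoform, had 0 reads in all 6, which allows up to 3 reads per line. Both were below the filter and were not tested.

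In the V0 sector, Atp6v0b had the lowest p-value of the whole group. It encodes a subunit of the proton-carrying ring and had normalized counts of 4174, 5239 and 4367 in control lines 5-9, 2 and 16 and 4049, 3737 and 3876 in PWS lines 3, 19-1 and 19-4. Every PWS line was below every control line, and control line 2 was the highest. The means were 4593 ± 567 (SD, n = 3) and 3887 ± 156 (SD, n = 3), a log2 fold change of -0.23 (SE 0.09, 95% interval -0.45 to -0.02) that did not pass adjustment (limma adjusted p = 0.414). Without control line 2 it was -0.14. Atp6v0c, the other ring subunit, had 4937 to 6108 normalized counts in control lines and 5559 to 6090 in PWS lines, and its log2 fold change was 0.063 (SE 0.09).

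Atp6v0d1, the collar that joins the rotor to the ring, varied least among control lines. It had normalized counts of 5153, 5145 and 5215 in control lines 5-9, 2 and 16 and 4909, 4873 and 4562 in PWS lines 3, 19-1 and 19-4. The groups did not overlap, and the log2 fold change was -0.11 (SE 0.06, 95% interval -0.25 to 0.03, limma adjusted p = 0.531). Atp6v0a1, the a subunit that forms the path of protons together with the ring, had normalized counts of 5492, 4962 and 6060 in control lines and 5998, 6856 and 5603 in PWS lines, in the same order of lines. Line 19-1 was the highest and control line 2 the lowest, the groups overlapped, and the log2 fold change was 0.16 (SE 0.10, limma adjusted p = 0.585). It was 0.079 without line 19-1 and 0.088 without control line 2.

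The e subunits are small membrane proteins of V0. Atp6v0e1 had normalized counts of 1694, 2102 and 1625 in control lines 5-9, 2 and 16 and 1489 to 1644 in PWS lines, and its log2 fold change was -0.18 (SE 0.10), or -0.071 without control line 2. Atp6v0e2 had 1384 to 1546 in control and 1311 to 1503 in PWS lines. Atp6v0a4, the a isoform of kidney acid-secreting cells, had 63.6 to 78.1 in control and 60.2 to 93.3 in PWS lines. Atp6v0d2, an isoform of osteoclasts, had 1 read in 6 libraries, in line 19-4.

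Among the accessory genes, Atp6ap1 encodes Ac45, a V0-bound glycoprotein that is cleaved in secretory cells and helps to direct the pump to granules. It had normalized counts of 6626, 5479 and 7183 in control lines 5-9, 2 and 16 and 6312, 5978 and 5900 in PWS lines 3, 19-1 and 19-4. Control lines 2 and 16 were the lowest and the highest of all 6 lines, and the log2 fold change was -0.076 (SE 0.10, limma adjusted p = 0.824). Atp6ap2, the (pro)renin receptor, which is needed for assembly of V0, had 3696 to 4172 in control and 3500 to 4074 in PWS lines. Atp6ap1l, a relative of Atp6ap1, had normalized counts of 9.49, 3.67 and 4.11 in control lines and 6.13, 7.17 and 3.64 in PWS lines, from 4 to 10 reads per library, and its fold change had no fixed sign across the alternatives. Atp6v1fnb ranged from 24.7 to 36.7 in control and from 27.3 to 34.7 in PWS lines.

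**Figure D2:**
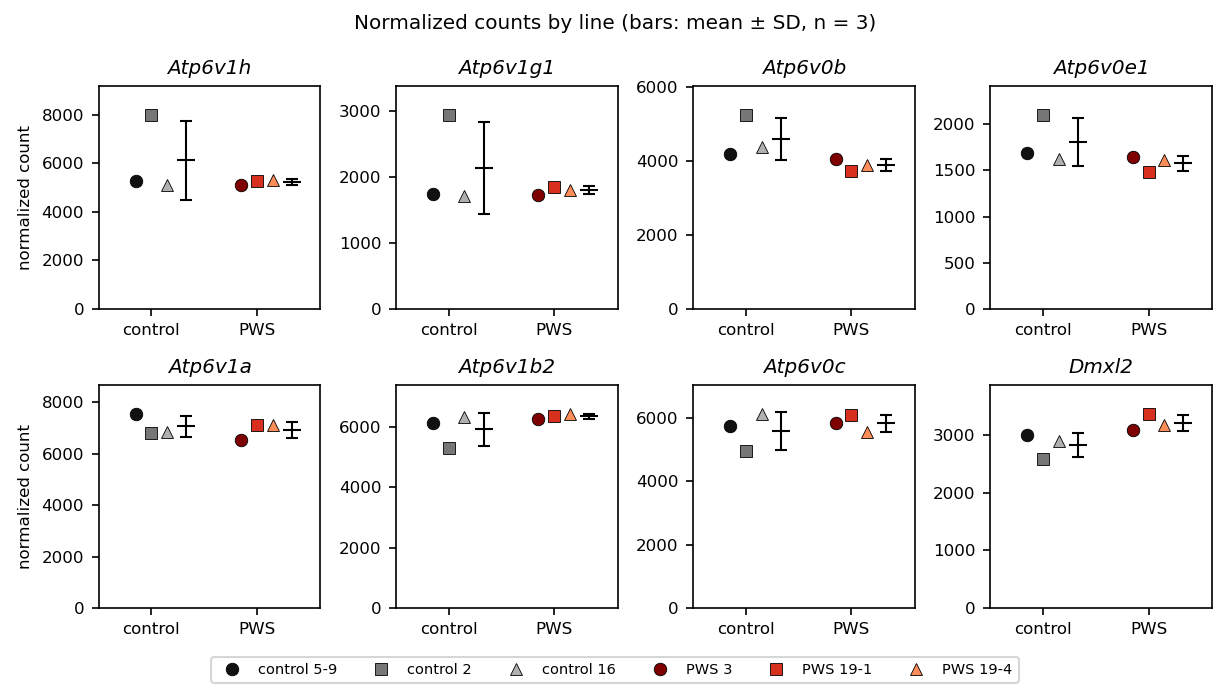
Normalized counts (y axis, from 0) of 8 genes in each of the 6 lines, by group (x axis), with mean ± SD (n = 3) as bars. In the top row control line 2 is the highest point for each gene, at 7989 for Atp6v1h and 2934 for Atp6v1g1, and in the bottom row it is the lowest for Atp6v1b2, Atp6v0c and Dmxl2.

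Subunits with more than 1 gene allow a comparison of isoforms within a line, free of the scaling between libraries. Atp6v1b2 held at least 99.98% of the reads of subunit B in each line, Atp6v0d1 at least 99.98% of subunit d and Atp6v1e1 at least 99.87% of subunit E. Of the reads of Atp6v0a1 and Atp6v0a4 together, 98.7% to 99.0% belonged to Atp6v0a1. Atp6v0a2, another a isoform, is not among the features, so whether subunit a is mixed cannot be told. Atp6v1c1 took 98.8% to 99.4% of subunit C, and Atp6v1g1 took 97.1% to 98.2% of subunit G. Of the subunits as compared by these genes, e was the mixed one. Atp6v0e1 took 52.3%, 60.3% and 51.7% of its reads in control lines 5-9, 2 and 16 and 52.2%, 51.9% and 55.1% in PWS lines 3, 19-1 and 19-4. Its share was 54.8% ± 4.79 (SD, n = 3) in control and 53.1% ± 1.77 (SD, n = 3) in PWS lines. Control line 2 set both the spread and the sign of this difference, which was -1.70 percentage points (PWS minus control) over all 6 lines and 1.06 without it. These shares are of reads and are not divided by transcript length, so they compare lines and not the amounts of 2 isoforms.

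Control line 2 was the highest of the 6 lines in 6 of the 31 tested genes and the lowest in 11. The ratios below were chosen after its values were seen and are given without a test. In line 2 the count of Atp6v1h was 1.17 times that of Atp6v1a, while the ratio lay between 0.699 and 0.777 in the other 5 lines. The ratio of Atp6v1g1 to Atp6v1a was 0.430 in line 2 and between 0.231 and 0.263 elsewhere. For Atp6v0b over Atp6v0c it was 1.06 in line 2 and 0.614 to 0.727 elsewhere, and for Atp6v0e1 over Atp6v0e2 it was 1.52 and 1.07 to 1.23. Line 2 was also the highest for Atp6v0d1 over Atp6v0a1 (1.04, with 0.711 to 0.938 elsewhere) and the lowest for Atp6v1b2 over Atp6v1a (0.774, with 0.815 to 0.955 elsewhere). The first 4 of these ratios in line 2 were outside the range of the other 5 lines under nonunique none counting (1.41, 0.521, 1.06 and 1.52) and in the RSEM table (1.10, 0.419, 1.03 and 1.85) as well.

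On the log2 scale, Atp6v1g1 and Atp6v1h in line 2 were 0.73 and 0.62 above the mean of the other 5 lines, which for all genes tested was the case by over 0.5, and above each other line, in 7.14%. Atp6v0e1 and Atp6v0b were 0.38 above. The genes that were lowest in line 2 included Atp6v1b2, Atp6v0c, Atp6v0a1, Atp6ap1, Dmxl1 and Dmxl2, by 0.22 to 0.27 below the mean of the other lines. Over all genes line 2 was the highest line for 24.5% and the lowest for 23.4%. Other lines were also the outermost ones, over 0.5 from the mean of the rest, in genes with fewer reads. Line 19-4 was so far above the rest for Atp6v1c2 and Slc18a1 (2 of 31, beside 4.43% of all genes) and below them for Slc17a9 and Atp6ap1l (2 of 31, beside 4.27%). Line 5-9 was above for Clcn4 and Atp6ap1l (1.45% of all genes), and line 3 was below for Atp6v1g2 and Slc18a1 (2.4% of all genes). The summed V1 counts were 1.36 times the summed V0 counts in line 2, against 1.31 and 1.22 in control lines 5-9 and 16 and 1.23, 1.26 and 1.37 in PWS lines 3, 19-1 and 19-4, with line 19-4 the highest.

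**Figure D3:**
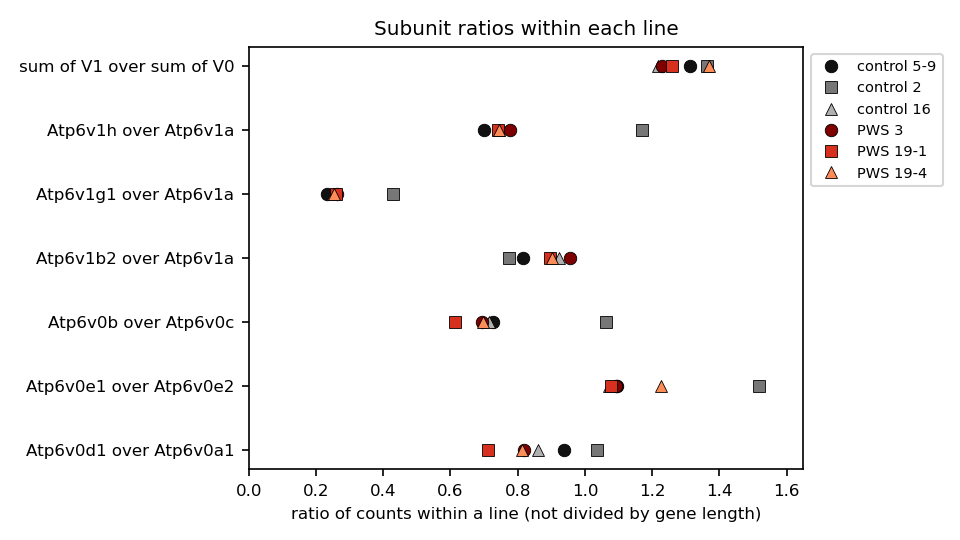
Ratios of normalized counts within each line (x axis, from 0, not divided by gene length) for 7 pairs of V-ATPase genes or sums (y axis), with a symbol per line. Control line 2 lies to the right of the other 5 lines for Atp6v1h, Atp6v1g1, Atp6v0b, Atp6v0e1 and Atp6v0d1, to the left for Atp6v1b2, and within their range for the sum of V1 over V0.

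The assembly factors Dmxl1 and Dmxl2 are the mammalian rabconnectins, large proteins that help V1 bind V0 again after the sectors have come apart. Dmxl2 had normalized counts of 2999, 2598 and 2904 in control lines 5-9, 2 and 16 and 3086, 3367 and 3181 in PWS lines 3, 19-1 and 19-4. Every PWS line was above every control line, with means of 2834 ± 210 (SD, n = 3) and 3212 ± 143 (SD, n = 3). The log2 fold change of 0.18 (SE 0.08, 95% interval 0.01 to 0.36) did not pass adjustment (limma adjusted p = 0.429), and it was 0.12 without control line 2. Dmxl1 had normalized counts of 5376, 4830 and 5466 in control lines and 5300, 6095 and 5998 in PWS lines, in the same order. PWS line 3 lay among the control lines, and the log2 fold change was 0.15 (SE 0.08, limma adjusted p = 0.535), or 0.094 when control line 2 was left out.

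Among the CLC exchangers, which trade chloride for protons and so carry the counter-charge for acidification, 4 of 5 had a negative log2 fold change and 0 passed the test. Clcn3, which has been placed on insulin granules and endosomes, had normalized counts of 3942, 3558 and 3907 in control lines 5-9, 2 and 16 and 3656, 3820 and 3580 in PWS lines 3, 19-1 and 19-4. The groups overlapped, with a log2 fold change of -0.044 (SE 0.07, 95% interval -0.20 to 0.11, limma adjusted p = 0.853). Clcn5, the exchanger of kidney endosomes, had 1072, 1155 and 1356 in control lines and 1076, 1099 and 875 in PWS lines. Line 19-4 was the lowest and line 16 the highest, with a log2 fold change of -0.23 (SE 0.12, limma adjusted p = 0.509). It was -0.13 without line 19-4 and -0.14 without line 16.

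Clcn6, an exchanger of late endosomes, was the member of the family with the opposite sign. It had normalized counts of 354, 367 and 342 in control lines 5-9, 2 and 16 and 388, 427 and 391 in PWS lines 3, 19-1 and 19-4. The groups did not overlap, and the log2 fold change was 0.18 (SE 0.09, 95% interval -0.03 to 0.39, limma adjusted p = 0.512). Clcn7, the lysosomal exchanger, had 629 to 740 in control and 571 to 637 in PWS lines, and its log2 fold change was -0.16 (SE 0.09), or -0.086 without control line 2, its highest line. Clcn4 had normalized counts of 83.6, 42.2 and 59.6 in control lines and 42.9, 63.4 and 43.6 in PWS lines. Its control lines alone spanned 0.97 on the log2 scale, and its log2 fold change of -0.27 (SE 0.28, limma adjusted p = 0.763) was -0.029 without line 5-9.

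The vesicular carriers load granules with their small molecules. Slc30a8 encodes ZnT8, which brings zinc into insulin granules for the packing of insulin crystals, and had normalized counts of 8915, 7885 and 10435 in control lines 5-9, 2 and 16 and 8244, 9040 and 7545 in PWS lines 3, 19-1 and 19-4. The ranges overlapped, and the log2 fold change was -0.13 (SE 0.11, 95% interval -0.39 to 0.13, limma adjusted p = 0.711). Leaving out line 16 gave -0.023 and leaving out line 2 gave -0.22. Slc17a9, the vesicular nucleotide transporter, had 439 to 568 in control lines and 492, 460 and 337 in PWS lines 3, 19-1 and 19-4. Line 19-4 was the lowest, and the log2 fold change of -0.22 (SE 0.16) was -0.058 without it and -0.12 without control line 16. The vesicular monoamine transporters had few reads, with 7 to 16 per library for Slc18a1 and 0 to 3 for Slc18a2, which was not tested.

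Lines 19-1 and 19-4 come from the same edited clone, and both are part of the PWS mean. Their difference is described beside the group difference. A difference between single lines varies more than one between group means, so a larger value is common over all genes too. For 16 of the 31 tested genes (51.6%, beside 60.9% of all genes tested), the 2 subclones differed by more than the means of the groups did. The widest such gaps were for Atp6v1c2, which was 0.94 lower on the log2 scale in line 19-1 than in 19-4, and for Atp6ap1l, which was 0.82 higher, both genes with few reads. Among the transporters line 19-1 was higher by 0.53 for Clcn4, 0.45 for Slc17a9, 0.33 for Clcn5 and 0.26 for Slc30a8, and it was lower by 0.40 for Slc18a1. For Atp6v1h, Atp6v1a and Atp6v1e1 the subclones differed by at most 0.0068. Per line, the median of the 8 transporters relative to the control mean was -0.14 in line 3, 0.0059 in line 19-1 and -0.24 in line 19-4, and the median of the 20 V-ATPase genes was -0.052, 0.012 and -0.059.

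**Figure D4:**
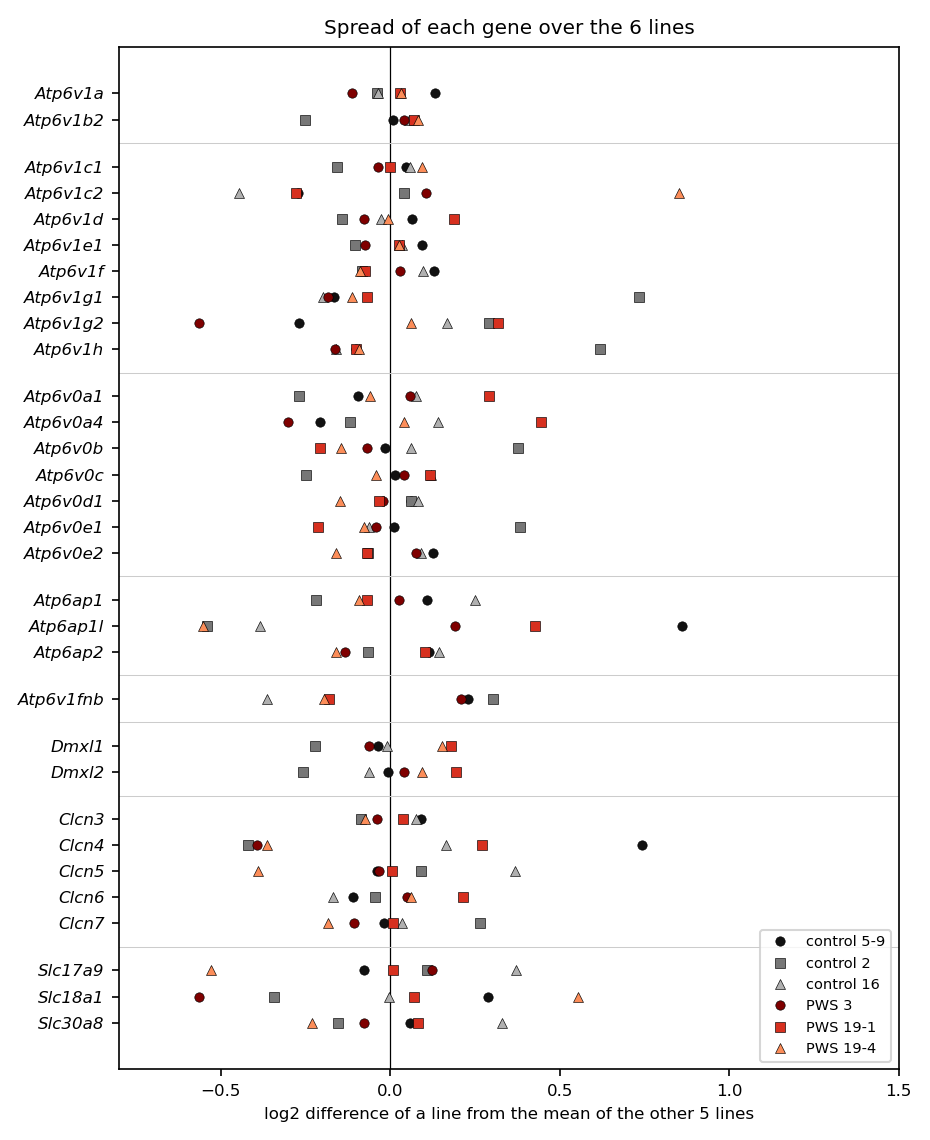
Log2 difference of each line from the mean of the other 5 lines (x axis) for the 31 tested genes (y axis), with a symbol per line and genes grouped by role. Control line 2 is 0.73 above the other lines for Atp6v1g1 and 0.62 for Atp6v1h, and line 19-4 is the lowest for Slc30a8, Slc17a9 and Clcn5.

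Genes of the pump and of lysosomes share a short promoter element in many tissues, the CLEAR element around the core CACGTG, to which TFEB and its relatives bind. RefSeq promoters of build GRCr8, from 250 bases before to 50 after a gene's start, were matched by gene identifier or symbol for 27 of the 36 genes in 29 windows. Genes with no match were Atp6v0d2, Atp6v0e2, Atp6v1b2, Atp6v1c1, Atp6v1fnb, Atp6v1h, Slc17a9, Slc18a1 and Slc30a8. The letters CACGTG, which read the same on both strands, were in 5 of the 29 windows (17.2%) and in 6.42% of all 33469 windows. The longer form TCACGTGA, which contains CACGTG and also reads the same on both strands, was in 3 of the 29 (10.3%) and in 0.777% of all windows. The matches are shown with 30 bases each, on the strand of the gene, to show which genes of the group hold the core (capitals):
Atp6v0d1, chr19:50357283-50357312, minus strand: ccccattgtggtCACGTGagatgcagtgcg
Atp6v0e1, chr10:17007115-17007144, minus strand: tcgcgcgccggtCACGTGagcctctgttga
Clcn4, chrX:27290855-27290884, plus strand: tggctgactgaaCACGTGatactgccagac
Clcn6, chr5:163748245-163748274, minus strand: gctcgagagggcCACGTGaccctcccgggg
Clcn6, chr5:163748222-163748251, minus strand: cccggggccagtCACGTGaggcgcagatcc
Clcn7, chr10:14656215-14656244, plus strand: tccgtcctgggtCACGTGggcaccgatggt
The core began 52 bases before the start of Atp6v0d1, 72 before that of Clcn4, 64 and 41 before that of Clcn6 and 34 before that of Clcn7, and at base 25 after the start of Atp6v0e1. The 5 genes did not share a direction, with log2 fold changes of -0.11 for Atp6v0d1, -0.18 for Atp6v0e1, -0.27 for Clcn4, 0.18 for Clcn6 and -0.16 for Clcn7, and 0 of them passed the test. A match of letters is a description and not evidence of binding.

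Other genes of the pathway, from lists outside the naming rule, held 1 call, made by DESeq2. Of 10 tested V-ATPase partners 0 had a limma adjusted p under 0.05, and their log2 fold changes had a median of 0.064. The lowest was Rogdi, a rabconnectin partner (-0.14, 821 to 831 normalized counts in control and 706 to 775 in PWS lines), and the highest was Ncoa7, which binds the V-ATPase (0.15, 1735 to 1780 and 1808 to 2053). The groups did not overlap for either gene. Tcirg1, the a isoform of osteoclasts, had at most 4.11 normalized counts in any line. Of 20 tested transporters of other organelles 0 passed, with a median log2 fold change of -0.0086, from Tpcn2, a cation channel of lysosomes (-0.43, limma adjusted p = 0.364), to the cation channel gene Mcoln3 (0.72, limma adjusted p = 0.650), whose value was 0.062 without control line 2. Of 26 lysosome genes of the CLEAR network 0 passed, with 13 higher and 13 lower on average and a median of -0.0024. They ran from Ppt1, a lysosomal thioesterase that had 1107 to 1322 normalized counts in control and 956 to 964 in PWS lines (-0.33, limma adjusted p = 0.277), to Flcn, a regulator of TFEB (0.25, or 0.089 without control line 2). Of 14 granule proteins 0 passed in limma and in edgeR and 1, Chgb, passed in DESeq2 (adjusted p = 0.0271). By log2 fold change they ran from Pcsk2 (-0.17, limma adjusted p = 0.863) to Chgb (1.59, limma adjusted p = 0.124). Pcsk2 was at -0.51 with line 2 left out and at 0.059 with line 16 left out, while Chgb ranged from 1.31 to 1.96 with any 1 line left out. Chgb, a granule matrix protein, had 9355 to 23243 normalized counts in control and 41729 to 41825 in PWS lines. For Ptprn2, a membrane protein of dense-core granules chosen after its values were seen, the groups did not overlap either (0.61, limma adjusted p = 0.353), with 4502 to 7995 in control and 9104 to 11571 in PWS lines. Control line 2 was its lowest line, without which the log2 fold change was 0.34. In the other 3 lists 0 genes passed in edgeR or DESeq2.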

How the data were processed

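Each line's total RNA library was depleted of rRNA and sequenced with stranded paired reads. After adapter removal (cutadapt), the authors mapped reads by STAR 2.7.0e to the Ensembl rat genome with the transgenes added, counted them with HTSeq 0.11.2 (nonunique all or nonunique none) or RSEM 1.3.1, and deposited a signal per line, counts divided by DESeq2 size factors. Columns of the authors' own comparison (fold changes and p-values) were not used. For both HTSeq countings, 100% of the values came out as whole reads (tolerance 0.01 reads), so reads were recovered.

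The nonunique all table was fitted with limma 3.58.1 in R 4.3.3 (lmFit, then eBayes with its trend option). Values were log2(normalized count + 1), and 15579 genes had the required mean of 5 or more, with Benjamini-Hochberg adjustment over all of them and a threshold of 0.05. The pseudocount understates fold changes of low genes. edgeR 4.0.16 and DESeq2 1.42.0 on recovered reads were alternatives, as were pseudocounts of 0.5 and 5, other filters, TMM scaling, no trend, the other countings, leaving out each line, a replicate block and averaging lines 19-1 and 19-4. Each test was run on simulated counts without differences between lines of a group beyond random spread. The planted changes were larger than any fold change seen here, so these runs do not show how well small changes are found. The genes and lists were chosen with earlier results of these data known. Values of every line are printed for genes with an unadjusted p under 0.05, the 3 highest and 3 lowest fold changes, the highest mean count of each role (not divided by length), Slc30a8 and the 3 widest control ranges. Values of other genes were added after they were seen. Shares and ratios are descriptions and carry no test.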

Additional observations from a re-analysis of the deposited data

How the results depend on the processing

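The count of genes of the group called stayed at 0 under all 19 alternatives, an adjusted p-value of 0.1 included, and the lowest adjusted p-value was 0.346 (Atp6v0b in DESeq2). The alternatives tested 31 genes of the group, except for 26 with a mean of at least 50, 30 under RSEM and 35 with every gene with any read. The number with an unadjusted p under 0.05 ranged from 0 to 2, and was 0 with lines 19-1 and 19-4 averaged and with the replicate block. The median log2 fold change lay between -0.076 and -0.0029 for the V-ATPase genes and between -0.20 and -0.074 for the transporters, each moving by less than the spread of the lines. Direction changed with 1 line left out in 13 of the 31 tested genes. Among those with values printed for every line, Atp6v1a was 0.018 without control line 5-9 and 0.0097 without PWS line 3, Atp6ap1 was 0.0084 without control line 16, and Atp6v1h (0.011) and Atp6v1g1 (0.051) changed sign without control line 2, from -0.20 each. Beside Atp6ap1l the others were Atp6v1g2, Atp6v0a4, Atp6v0c, Atp6v1e1, Atp6v1c1, Atp6v1d, Slc18a1 and Atp6v1fnb. Atp6ap1l was -0.057 in edgeR, -0.042 in DESeq2, and -0.18, -0.12, -0.034 and -0.13 without control line 2, control line 16, PWS line 3 and PWS line 19-1. With a line left out, the lowest values were -0.054 for Atp6v1a, -0.19 for Atp6ap1, -0.31 for Atp6v1h and -0.34 for Atp6v1g1, and the highest for Atp6ap1l was 0.40. With a line left out, the share difference between groups (percentage points) ran from -3.22 to 1.06 for Atp6v0e1, from -0.44 to 0.084 for Atp6v1g1 and from -0.070 to 0.10 for Atp6v0a1, so each changed sign. The cause was not tested. The count of genes whose groups do not overlap ranged from 4 to 10 with a line left out (an alternative added after seeing the data), and was 10 without control line 2, where 28.3% of all genes did not overlap. With 2 lines in a group less separation is needed, which raised the share of all genes too. With the replicate number as a block, Atp6v0b had an adjusted p of 0.460 and the count of calls was 0. Same-numbered lines share only a number, since their deviations correlated by 0.0035, 0.047 and 0.0051. Genes with few reads, such as Clcn4, Slc18a1 and Atp6ap1l, leave wide intervals at this depth. Over all genes, 40 passed, against 9 with a mean of at least 50, 228 in DESeq2, 16 under nonunique none and 12 under RSEM.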
